A study of Mus musculus with 10 samples.

Results

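The 30 genes described here make cholesterol and fatty acids in mouse cells or regulate that synthesis. They were taken as a list of gene symbols, matched to the Ensembl gene identifiers of the deposited count tables, and all 30 were found among the 49585 genes counted. The sterol arm has 18 genes, the fatty acid arm 8, and 4 more are regulators or carriers of sterols. RNA was sequenced in bulk from the livers of mice in which the Rb family, the retinoblastoma protein and its relatives, had been deleted by Cre recombinase, a model of hepatocellular carcinoma. The 10 samples form 5 groups of 2, and by the labels' one shared protocol the cells carried YFP, a fluorescent sign of recombination, when they were sorted. Of these, the 2 groups of organoids, cultured epithelial structures, were analysed: 2 libraries derived from Ck19 cells and 2 derived from Sox9 cells. Ck19 is a keratin of the bile ducts, and Sox9 is a DNA-binding factor made by ductal cells and by liver progenitors. The Cre driver, age, culture conditions and the source of each replicate are not given in the sources used here, so p-values measure only the spread between these libraries, which may be technical. The other 3 groups, sorted as negative for Epcam, high in Epcam or positive for Thy1, were not analysed here.

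A further pair of count columns also bears the name Sox9, with the tag TKO and the numbers 1 and 2. The labels do not tell which pair of Sox9 columns the Sox9-derived samples are. The untagged pair was used as the Sox9-derived organoids and the TKO-tagged pair is described beside it under its own name. All 7 biliary markers were at 1 CPM, counts scaled to library totals, or more in each of the 4 organoid libraries, where their summed level was 14050 to 31270 CPM. In the TKO-tagged libraries the sum was 507 and 1157 CPM, and Epcam stood at 8.99 and 5.62 CPM against 2101 to 3833 CPM in the organoids. The 7 hepatocyte markers summed to 76300 and 55930 CPM in the TKO-tagged pair and to 123 to 545 CPM in the organoids. Mesenchymal markers (296 and 198 CPM) and endothelial markers (91.1 and 58.7 CPM) were also present in the TKO-tagged pair, against at most 2.81 and 0.69 CPM in the organoids. Erythroid markers summed to 216 and 1749 CPM there and to at most 0.153 CPM in the organoids. Myeloid markers summed to 709 and 380 CPM there and to 1072 to 1354 CPM in the organoids, mostly Cd14. Yet 4 of the 6 were called higher in the TKO-tagged pair than in the Ck19-derived pair under both scalings used below. Among them Ptprc, the leukocyte surface protein CD45, was at 14.1 and 15.3 CPM there and at most 0.188 CPM in the organoids. Lymphoid markers summed to 10.4 and 5.68 CPM there and to at most 0.244 CPM in the organoids, and all 3 that were tested were called higher. Adipocyte markers summed to at most 0.366 CPM in any library. The TKO-tagged pair therefore did not carry the markers of the organoid libraries, and its label as organoids is uncertain.

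Library totals ranged from 31883180 to 36606008 fragments in the organoids and were 53280136 and 59664959 in the TKO-tagged pair, which was counted in a separate table. The Ck19-derived libraries held the female transcript Xist at 60.3 and 57.1 CPM, and the other 4 libraries held it at 0.0375 CPM or less with the Y-linked Eif2s3y at 62.2 to 92.4 CPM, so the sex of the source cells and the organoid group cannot be told apart. Rb1 was counted at 21.0 and 21.8 CPM in the Ck19-derived libraries, 14.5 and 12.6 CPM in the Sox9-derived ones and 4.50 and 5.40 CPM in the TKO-tagged libraries. Rbl1 ranged from 0.687 to 4.05 CPM and Rbl2 from 1.73 to 8.77 CPM over the 6 libraries. These are counts over all exons, and the deleted exons are not given in the sources used here, so they do not check the deletion.

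Cholesterol is built from acetyl-CoA through mevalonate, farnesyl diphosphate and squalene, which is closed to lanosterol and then trimmed and desaturated to cholesterol. Fatty acids are built from the same acetyl-CoA through malonyl-CoA by fatty acid synthase, and are then elongated and desaturated. Both arms are transcribed under the SREBP factors: SREBP2, from Srebf2, favours the sterol genes, and SREBP1c, from Srebf1, favours the fatty acid genes. Both precursors are held in the endoplasmic reticulum by Insig proteins when sterols are plentiful. The liver is a main site of both pathways, and hepatocytes also make fatty acids in response to insulin and to liver X receptors.

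The stretches of 250 bases before the transcription start are shown for 3 members, Hmgcs1 as the entry to the sterol arm, Ebp as the member at the highest level per length in the TKO-tagged pair, and Fasn as the central gene of the fatty acid arm. They come from RefSeq on GRCm38.p6 and read 5′ to 3′ on the gene's strand. Capitals mark matches on either strand to CCAAT (read as ATTGG on the reverse), the letters bound by NF-Y, and in Hmgcs1 also the match to TCACNCCAC, a form of the sterol regulatory element. The windows are chr13:119690101-119690350 on the + strand for Hmgcs1, chrX:8193513-8193762 on the - strand for Ebp and chr11:120824548-120824797 on the - strand for Fasn.
Hmgcs1: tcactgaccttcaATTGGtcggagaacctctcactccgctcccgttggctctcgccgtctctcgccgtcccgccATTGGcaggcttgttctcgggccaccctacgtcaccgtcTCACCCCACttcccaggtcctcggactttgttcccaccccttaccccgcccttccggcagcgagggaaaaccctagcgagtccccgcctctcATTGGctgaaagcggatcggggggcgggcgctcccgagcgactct
Ebp: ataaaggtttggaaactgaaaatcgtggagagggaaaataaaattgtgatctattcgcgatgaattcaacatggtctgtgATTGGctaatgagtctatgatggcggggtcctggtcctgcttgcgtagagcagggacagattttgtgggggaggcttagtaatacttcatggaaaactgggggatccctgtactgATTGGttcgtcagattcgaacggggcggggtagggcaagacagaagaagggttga
Fasn: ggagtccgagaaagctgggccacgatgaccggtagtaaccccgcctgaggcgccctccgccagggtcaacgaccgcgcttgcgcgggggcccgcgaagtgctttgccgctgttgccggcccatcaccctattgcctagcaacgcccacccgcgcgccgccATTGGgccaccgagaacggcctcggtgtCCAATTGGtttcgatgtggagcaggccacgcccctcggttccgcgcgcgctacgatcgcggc
Promoters of 24 of the 30 members were matched, in 30 windows since some genes have more than 1 start. The table used has no entry for Fdps, Fdft1, Sqle, Scd1, Scd2 and Stard4. CCAAT was found in 21 of the 30 windows (70.0%), against 33.85% of all 32851 windows of the same length. The GC box GGGCGG, bound by Sp1, was found in 73.3% of the members' windows against 32.74% of all. The E-box CACGTG, searched on both strands like the others, was found in 13.3% against 6.02%. TCACNCCAC was found in 1 of the 30 windows (3.3%), that of Hmgcs1, against 1.05% of all windows. In Fasn, 2 of the 3 CCAAT matches overlap each other on opposite strands. These matches describe letters in a window and do not show binding.

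In Sox9-derived against Ck19-derived organoids, most members were lower in the Sox9-derived pair, but none of the 30 passed the test. The fold change was below 0 for 16 of the 18 sterol genes, with a median log2 fold change of -0.35, and for 6 of the 8 fatty acid genes, with a median of -0.17. The 4 regulators had a median of -0.015 and all 16653 tested genes a median of 0.006. Without Ck19-derived replicate 1 the sterol median was -0.16, and the fatty acid and regulator medians turned to 0.095 and 0.14. Without Ck19-derived replicate 2 the 3 medians were -0.53, -0.45 and -0.18. Without Sox9-derived replicate 2 the fatty acid median was -0.43, and without Sox9-derived replicate 1 the regulator median was -0.062. The edgeR quasi-likelihood test called 0 of 30 members at an adjusted p of 0.05, where 0.57% of all tested genes were called. An unadjusted p under 0.05 was reached by 6 members, a share near the 16.8% of all tested genes that reached it. Limma-voom called 0 members and DESeq2 called 3 (Cyp51, Msmo1 and Scd1), all lower. Over all 16653 tested genes DESeq2 called 1512, of which 863 were lower. In CPM on library totals, 9 sterol genes were lower in both Sox9-derived than in both Ck19-derived libraries and 0 were higher in both. Over all members 14 were lower without overlap, where 26.3% of all tested genes were, and 2 were higher without overlap, where 24.6% of all were. The summed biliary markers also differed between the groups, at 14290 and 14050 CPM for Ck19-derived and 31270 and 26990 CPM for Sox9-derived libraries. Most of this was Spp1, at 7434 and 7744 CPM against 22830 and 18280 CPM. Of the 7 markers 5 were higher without overlap, Krt7 overlapped and Cldn4 was lower without overlap. The part of these markers in the members' differences was not tested. In bulk RNA, fewer cells of one type and less RNA per cell cannot be told apart.

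**Figure D1:**
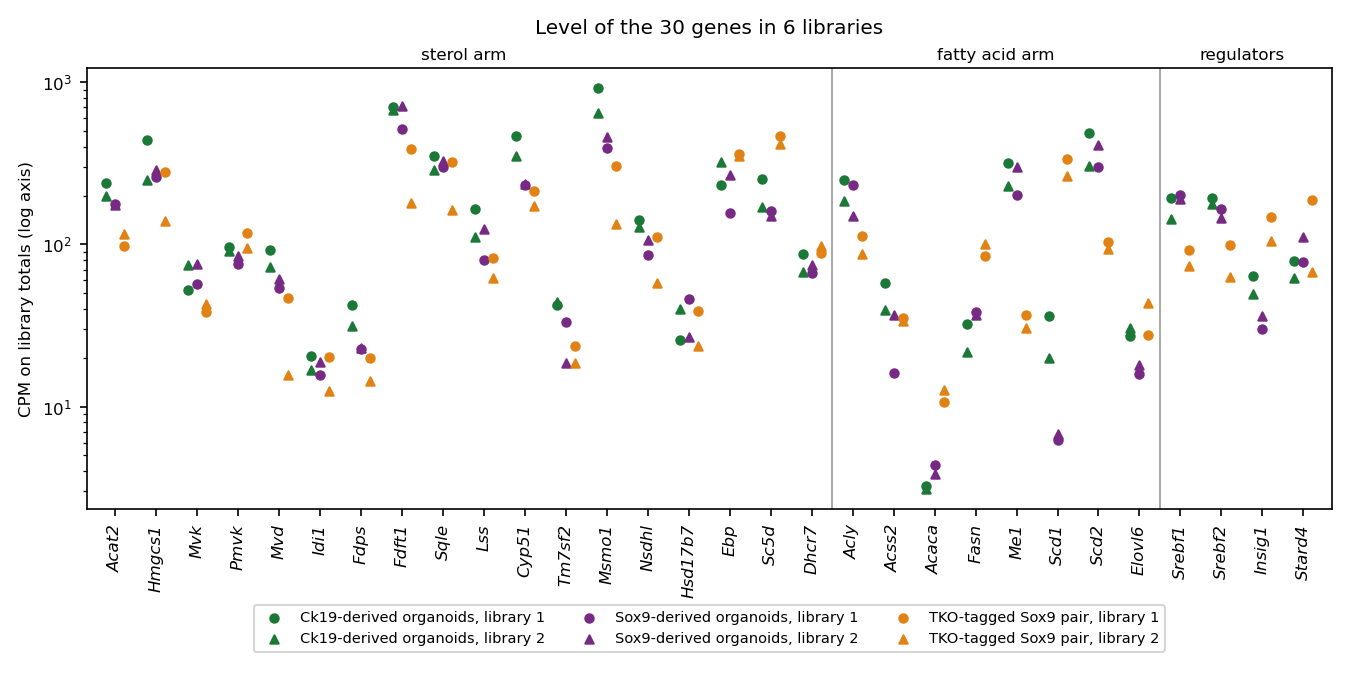
Level of each of the 30 genes in CPM on library totals (log axis) in the 6 libraries, circles for library 1 and triangles for library 2, with the arms separated by vertical lines. Scd1 sat at 6.23 and 6.76 CPM in the Sox9-derived, 36.2 and 19.9 CPM for Ck19-derived and 338 and 265 CPM for TKO-tagged libraries.

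The early sterol genes carry acetyl units to the C5 isoprenoids. Hmgcs1, which makes HMG-CoA, was at 438 and 249 CPM in the Ck19-derived libraries and 262 and 288 CPM in the Sox9-derived ones, so the groups overlapped. Acat2, which joins acetyl-CoA units, was at 241 and 199 CPM against 178 and 175 CPM in the Sox9-derived pair. Mvd, the mevalonate diphosphate decarboxylase, was at 92.9 and 72.1 CPM against 53.6 and 61.2 CPM. Acat2 and Mvd did not overlap, and their log2 fold changes of -0.31 (SE 0.18, adjusted p = 0.455) and -0.52 (SE 0.22, adjusted p = 0.325) did not pass. The kinases Mvk and Pmvk ranged from 52.5 to 75.6 CPM and from 76.1 to 96.3 CPM over the 4 organoid libraries. The isomerase Idi1 ranged from 15.6 to 20.5 CPM. Of these 3, only Pmvk was lower in both Sox9-derived libraries, by a log2 fold change of -0.22.

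At the farnesyl and squalene steps the groups mostly overlapped. Fdft1, squalene synthase, was at 707 and 676 CPM in the Ck19-derived libraries and 513 and 715 CPM in the Sox9-derived ones. Sqle, squalene epoxidase and a rate-limiting enzyme, was at 353 and 288 CPM against 301 and 325 CPM. Fdps, which makes farnesyl diphosphate, was at 42.0 and 31.4 CPM against 22.7 and 23.0 CPM and did not overlap. Its log2 fold change of -0.68 (SE 0.25) had an adjusted p of 0.279. Counting was unstranded, and 26.8% of Fdft1's exon bases are shared with Ctsb and 26.7% of those of Fdps with Gm43738, so the levels of these genes are uncertain.

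The largest sterol differences were at the sterol ring, in enzymes that remove methyl groups from lanosterol. Msmo1, the C4 methyl sterol oxidase, was at 924 and 651 CPM in the Ck19-derived libraries and 391 and 459 CPM in the Sox9-derived ones. Cyp51, which removes the C14 methyl group, was at 464 and 349 CPM against 232 and 236 CPM. Both Sox9-derived libraries lay below both Ck19-derived libraries for both genes. Their log2 fold changes were -0.89 (SE 0.24, adjusted p = 0.176) for Msmo1 and -0.80 (SE 0.21, adjusted p = 0.164) for Cyp51 in edgeR. Tm7sf2, a sterol C14 reductase, was at 42.1 and 44.2 CPM against 33.4 and 18.5 CPM, with 15.3% of its exon bases shared with another gene. Nsdhl, the C4 decarboxylase, was at 141 and 129 CPM against 85.7 and 107 CPM. Sc5d, the C5 desaturase, was at 255 and 171 CPM against 159.8 and 149 CPM. These 3 genes were also lower without overlap, with log2 fold changes of -0.73, -0.48 and -0.46, and none passed. Lss (lanosterol synthase), Hsd17b7, Ebp and Dhcr7 (the last reductase) overlapped between the groups, with log2 fold changes from -0.43 to 0.14.

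The fatty acid arm had the largest difference of all members, in Scd1, a stearoyl-CoA desaturase that puts the first double bond into saturated chains. Scd1 was at 36.2 and 19.9 CPM in the Ck19-derived libraries and 6.23 and 6.76 CPM in the Sox9-derived ones. The groups did not overlap and the Ck19-derived mean was 4.33-fold higher, although the Ck19-derived libraries also differed from each other. The log2 fold change of -2.11 (SE 0.39) had an adjusted p of 0.108. Its paralogue Scd2 was at 489.8 and 307 CPM against 302 and 413 CPM and overlapped. Elovl6, which lengthens palmitate, was at 27.2 and 30.7 CPM against 15.9 and 18.1 CPM, a log2 fold change of -0.77 (SE 0.24, adjusted p = 0.222). Acss2, which activates acetate, was at 57.9 and 39.2 CPM against 16.01 and 36.6 CPM, so its Sox9-derived libraries differed from each other by more than the gap between the groups. Fasn, which builds the chain itself, and Acaca, which makes malonyl-CoA, were the 2 members higher without overlap. Fasn was at 32.5 and 21.8 CPM against 38.4 and 36.6 CPM, and Acaca at 3.23 and 3.08 CPM against 4.37 and 3.86 CPM. Their log2 fold changes of 0.46 and 0.38 did not pass. Acly and Me1, which supply cytosolic acetyl-CoA and NADPH, overlapped, at 151 to 251 CPM and 201 to 317 CPM over the 4 libraries.

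Among the regulators, Srebf2 was at 193 and 177 CPM in the Ck19-derived libraries and 165 and 145 CPM in the Sox9-derived ones, and Srebf1 at 193 and 143 CPM against 202 and 192 CPM. Insig1, which holds SREBP in the endoplasmic reticulum and is itself an SREBP target, was at 63.7 and 49.2 CPM against 30.1 and 36.1 CPM. Srebf2 and Insig1 were lower without overlap, by log2 fold changes of -0.26 (adjusted p = 0.511) and -0.77 (SE 0.24, adjusted p = 0.223). Stard4, a carrier of cholesterol between membranes, ranged from 62.4 to 111 CPM and overlapped. Without Ck19-derived replicate 1 or without Ck19-derived replicate 2, the fit called none of the tested genes, members included. Scd1 was called without Sox9-derived replicate 1 (adjusted p = 0.0258) and Scd1 and Acss2 without Sox9-derived replicate 2 (adjusted p = 0.0262 and 0.0357), where the lone library of a group is assumed to vary like the other group.

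**Figure D2:**
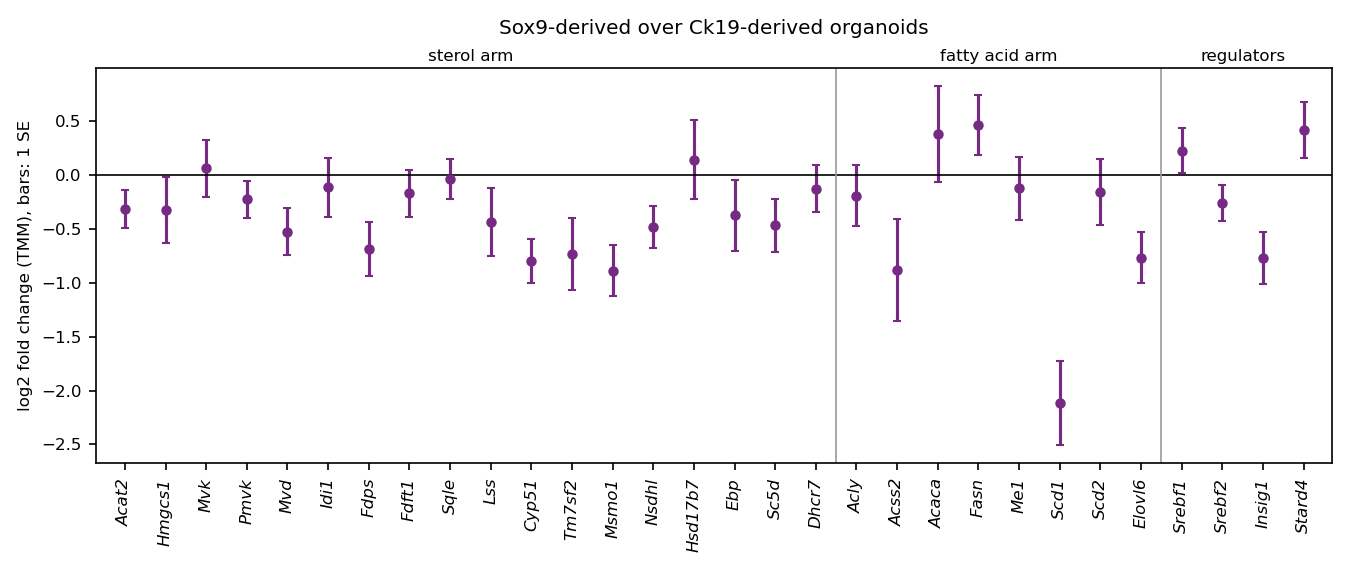
Log2 fold change of each member, Sox9-derived over Ck19-derived organoids, from edgeR with TMM scaling, with bars of 1 standard error (2 libraries a group). Of the 18 sterol genes, 16 lie below 0, Scd1 lies lowest at -2.11, and no member passed the adjusted threshold.

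The TKO-tagged pair was compared with the same Ck19-derived libraries, so both comparisons share their controls. The fatty acid arm was split: Scd1, Fasn and Acaca were higher and Me1 and Scd2 lower in the TKO-tagged pair, while most sterol genes did not pass. The answer for many members depends on the scaling, because TMM and library totals place the median log2 fold change of all 17938 tested genes at -0.065 and -0.82. Under TMM, 8 members were called higher, where 15% of all tested genes were, and 2 lower, where 14% were. On library totals, 5 were called higher, where 10.9% of all were, and 9 lower, where 28.8% were. The 9 called lower on library totals are near that background. In CPM on library totals, 16 of the 30 members were lower in both TKO-tagged than in both Ck19-derived libraries. So were 10566 of all 17938 tested genes, so lying lower without overlap is common here. Higher without overlap were 7 members and 3401 of all tested genes. The sterol, fatty acid and regulator medians were 0.069, 0.65 and 0.68 under TMM and -0.70, -0.10 and -0.082 on library totals. Called in 1 direction under both scalings were Sc5d, Acaca, Fasn, Scd1 and Insig1, higher, and Me1 and Scd2, lower. Without Ck19-derived replicate 1 or 2, Scd1 kept its call and the other members lost theirs. Far fewer of all tested genes were called in those fits as well, so this loss is not particular to the members. Pmvk lost its call without TKO-tagged replicate 1, and Scd2 lost its call without TKO-tagged replicate 2.

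Scd1 was at 338 and 265 CPM in the TKO-tagged libraries, 10.7-fold the Ck19-derived mean of 28.1 CPM. Its log2 fold change was 4.18 (SE 0.44, adjusted p = 0.00469) under TMM and 3.43 (SE 0.40, adjusted p = 0.00465) on library totals. Scd2 was at 103.5 and 94.1 CPM, and its Ck19-derived mean was 4.03-fold higher. The log2 fold change of Scd2 was -1.26 (SE 0.33, adjusted p = 0.0443) under TMM and -2.01 (adjusted p = 0.0105) on library totals. The call on Scd2 was lost without count filter (adjusted p = 0.0647).

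Fasn was at 84.8 and 100.6 CPM, 3.42-fold the Ck19-derived mean, with a log2 fold change of 2.52 (SE 0.31, adjusted p = 0.00727) under TMM and 1.77 on library totals. Acaca, which makes malonyl-CoA, was at 10.7 and 12.6 CPM, 3.69-fold the Ck19-derived mean, with a log2 fold change of 2.64 (SE 0.43, adjusted p = 0.0143) under TMM and 1.88 on library totals. Both genes were higher in each TKO-tagged library than in any of the 4 organoid libraries. Me1, the cytosolic malic enzyme that yields NADPH, was at 36.9 and 30.5 CPM, and its Ck19-derived mean was 8.10-fold higher. Its log2 fold change was -2.26 (SE 0.31, adjusted p = 0.0089) under TMM and -3.02 on library totals. Acly fell on library totals only (log2 fold change -1.13, adjusted p = 0.031, against -0.37 under TMM, adjusted p = 0.399), at 112 and 87.7 CPM. Acss2 was at 35.0 and 33.9 CPM and Elovl6 at 27.7 and 43.2 CPM, and neither passed under either scaling.

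In the sterol arm, Sc5d was at 467 and 415 CPM in the TKO-tagged libraries, 2.07-fold the Ck19-derived mean. Its log2 fold change was 1.81 (SE 0.32, adjusted p = 0.0178) under TMM and 1.05 (adjusted p = 0.0429) on library totals. Ebp, the sterol isomerase that acts before Sc5d, was at 359 and 351 CPM, and Dhcr7, the reductase that acts after it, at 89.2 and 97.2 CPM. Pmvk was at 117 and 94.6 CPM. These 3 genes were called higher under TMM, with log2 fold changes of 1.12, 1.02 and 0.94 and adjusted p of 0.0352, 0.0403 and 0.0471, and on library totals the values were 0.36, 0.27 and 0.17, none called. Without a count filter Dhcr7 and Pmvk lost their calls under TMM as well (adjusted p = 0.0526 and 0.0678). Msmo1 was at 305 and 135 CPM and Cyp51 at 213 and 172 CPM, below all 4 organoid libraries. Both were called lower on library totals (log2 fold changes -1.84 and -1.08), together with Acat2 and Tm7sf2 (both -1.03), and under TMM none of the 4 passed (-1.07, -0.32, -0.28 and -0.27). The other 10 sterol genes passed under neither scaling. Among them Hmgcs1 was at 281 and 139 CPM, Fdft1 at 387 and 181 CPM, Sqle at 321 and 164 CPM and Mvd at 46.6 and 15.7 CPM. For each of these, library 1 was well above library 2.

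Insig1 was at 148 and 105 CPM in the TKO-tagged libraries, 2.24-fold the Ck19-derived mean, with a log2 fold change of 1.92 (SE 0.32, adjusted p = 0.0152) under TMM and 1.16 (adjusted p = 0.0327) on library totals. Srebf1 was at 92.6 and 73.9 CPM and Srebf2 at 98.8 and 62.6 CPM. Both were lower than in the Ck19-derived pair on library totals (log2 fold changes -1.01 and -1.20, adjusted p = 0.0404 and 0.0327) and did not pass under TMM (-0.25 and -0.43). Stard4 was at 188 and 67.2 CPM and did not pass under either. The biliary, hepatocyte, mesenchymal, endothelial, erythroid, myeloid and lymphoid markers given above also differed between these pairs. Of the 7 biliary markers, 5 were called lower under TMM and 6 on library totals. The part of any of these markers in the members' differences was not tested.

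**Figure D3:**
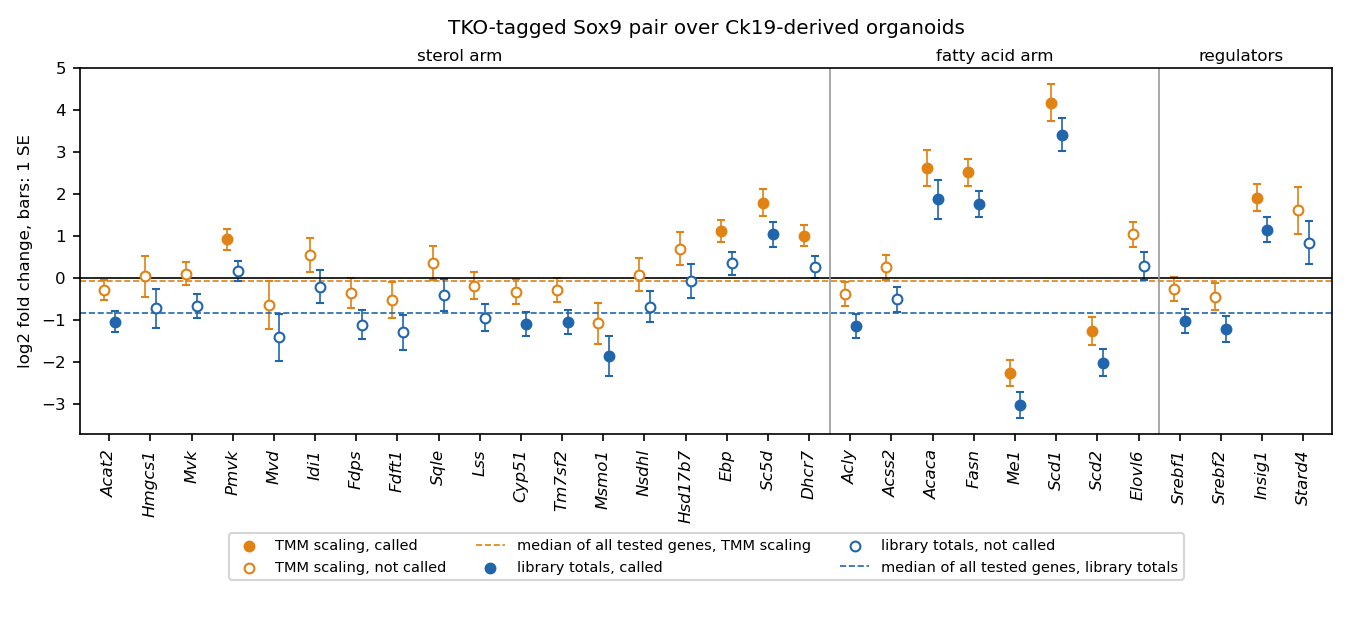
Log2 fold change of each member, TKO-tagged pair over Ck19-derived organoids, under TMM scaling (orange) and library totals (blue), with bars of 1 standard error, filled where called, and dashed lines at the median of all tested genes (-0.065 and -0.82). Scd1, Acaca, Fasn, Sc5d and Insig1 are filled above 0 and Me1 and Scd2 below 0 under both.

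The arms were compared within each library as the mean log2(CPM + 1) of the sterol genes minus that of the fatty acid genes, a difference in which the scaling largely cancels. It was 1.14 and 1.37 for the Ck19-derived libraries, 1.35 and 1.27 for the Sox9-derived and 0.84 and 0.32 for the TKO-tagged ones. The organoid pairs overlapped, at 1.25 ± 0.17 and 1.31 ± 0.056 (SD, n = 2), and both TKO-tagged libraries lay below all 4 organoid libraries, at 0.58 ± 0.37. That separation leans on Scd1, 1 of the 8 fatty acid genes, and does not describe the arm as a whole. Scd1 was at 8.41 and 8.06 on this log2 scale in the TKO-tagged libraries. It was at 5.22 and 4.39 in the Ck19-derived and 2.85 and 2.96 in the Sox9-derived ones, while Me1 and Scd2 were lower in the TKO-tagged pair. The sterol arm itself averaged 7.08 ± 0.14 in the Ck19-derived pair, 6.72 ± 0.086 for Sox9-derived and 6.47 ± 0.38 in the TKO-tagged pair. The fatty acid arm averaged 5.83 ± 0.30, 5.42 ± 0.14 and 5.89 ± 0.006. On these means both arms were lower in the Sox9-derived than in the Ck19-derived pair, without overlap between the libraries of the 2 groups. The gap in the fatty acid arm leans on Scd1. By median log2 fold change the arms stood at -0.35 for the sterol and -0.17 for the fatty acid genes, a gap that was not tested. Without Sox9-derived replicate 2 the medians were -0.41 and -0.43, so the order of the arms was not stable. In summed CPM the sterol arm held 4378 and 3584 for Ck19-derived, 2730 and 3231 for Sox9-derived and 3019 and 2111 in the TKO-tagged libraries. The fatty acid arm held 1215 and 837, 817 and 965, and 749 and 668, so on this sum its organoid groups overlapped.

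**Figure D4:**
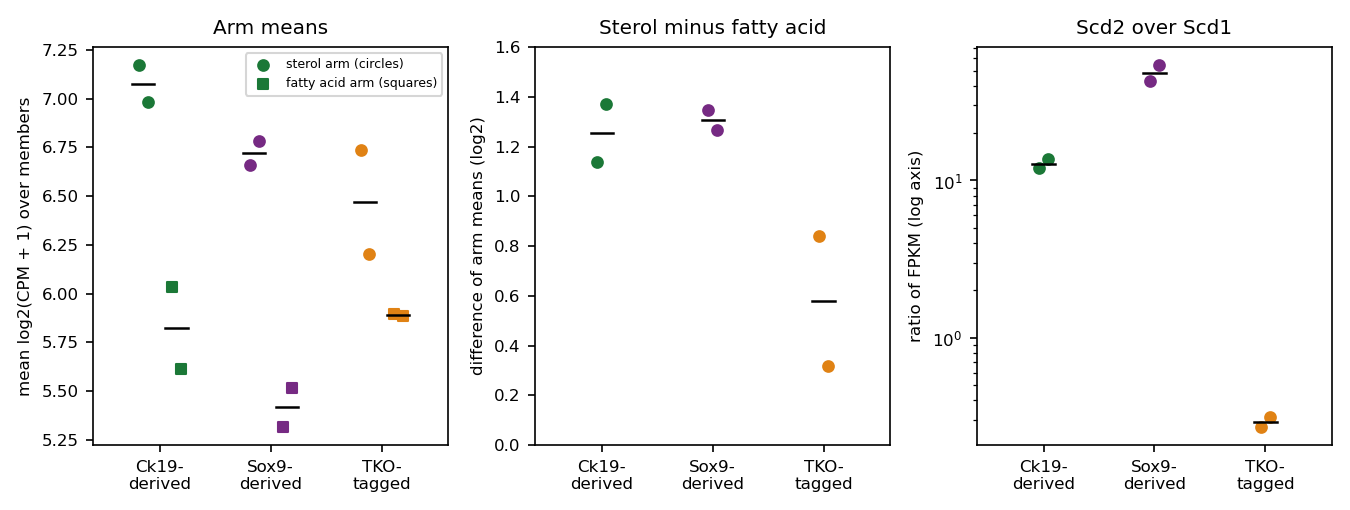
Left, mean log2(CPM + 1) over the sterol arm (circles) and the fatty acid arm (squares) in each library; middle, their difference; right, Scd2 over Scd1 as a ratio of FPKM, fragments per kilobase of exon scaled to library totals (log axis). Points are libraries and bars pair means. The TKO-tagged libraries lie lowest on the right (0.271 and 0.315). They also lie lowest in the middle panel (0.84 and 0.32), where Scd1 weighs on the fatty acid mean.

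Levels of different genes were compared as fragments per kilobase of exon, scaled to library totals (FPKM). In the Ck19-derived pair Fdft1 was highest at 242 ± 7.74 FPKM (SD, n = 2), followed by Msmo1 at 128 ± 31.4, Ebp at 119.7 ± 27.8 and Hmgcs1 at 106 ± 41.3 FPKM, and the last 3 did not differ beyond their spread. Fasn (2.48 ± 0.689 FPKM) and Acaca (0.185 ± 0.0061 FPKM) were lowest. In the Sox9-derived pair Fdft1 was again highest at 215 ± 49.9 FPKM, and Scd1 (1.34 ± 0.077 FPKM) and Acaca (0.241 ± 0.021 FPKM) lowest. In the TKO-tagged pair Ebp led at 154 ± 2.497 FPKM, with Fdft1 at 99.2 ± 50.9 and Sc5d at 90.6 ± 7.57 FPKM, and Scd1 at rank 5 with 62.4 ± 10.7 FPKM. Among the 30 members Scd1 stood at rank 25 for Ck19-derived and rank 29 for Sox9-derived organoids. The ratio of Scd2 to Scd1 on this scale was 12.0 and 13.6 for Ck19-derived, 43.0 and 54.2 for Sox9-derived and 0.271 and 0.315 in the TKO-tagged libraries, so that Scd2 was the higher desaturase in each organoid library and Scd1 in both TKO-tagged libraries.

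Members also differed together within a pair. In the Ck19-derived pair, 14 of 18 sterol genes and 7 of 8 fatty acid genes were higher in library 1, with median log2 differences of 0.28 and 0.51, where 48.9% of all tested genes were higher in library 1. In the Sox9-derived pair 4 of 18 sterol and 3 of 8 fatty acid genes were higher in library 1, with medians of -0.16 and -0.14, where 50.4% of all were. In the TKO-tagged pair 15 of 18 sterol genes were higher in library 1, with a median of 0.42, and 5 of 8 fatty acid genes, with a median of 0.09, where 44.8% of all were. The sterol genes in the TKO-tagged pair ranged from -0.24 to 1.51, the highest being Mvd. Fold changes of genes that vary together in this way are not independent of each other.

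The genes around the 2 pathways were described by 4 lists of 44 genes. In Sox9-derived against Ck19-derived organoids, 0 of the 44 passed edgeR's test, and 9 reached an unadjusted p under 0.05, again near the 16.8% of all tested genes. The medians were 0.099 for the 8 genes of SREBP processing, -0.22 for the 10 of liver X receptors, efflux and storage, 0.054 for the 9 of the isoprenoid branch and -0.23 for the 17 of further lipogenesis. Soat2, which esterifies cholesterol for storage and secretion, was at 38.4 and 37.0 CPM in the Ck19-derived libraries and 10.1 and 10.5 CPM in the Sox9-derived ones, a log2 fold change of -1.87 (SE 0.23, adjusted p = 0.064). Slc25a1, which exports the citrate that Acly cleaves, was at 568 and 397 CPM against 235 and 190.1 CPM, a log2 fold change of -1.18 (SE 0.25, adjusted p = 0.125). Others of these lists were higher in the Sox9-derived pair without overlap. Abca1, the cholesterol exporter, was at 0.157 and 0.0611 CPM against 0.492 and 1.06 CPM, and Mylip, a ubiquitin ligase induced by liver X receptors, at 0.126 and 0.0305 CPM against 0.874 and 0.452 CPM, both from few fragments. Pdss1, which makes the side chain of coenzyme Q, was at 11.8 and 14.4 CPM against 24.8 and 33.8 CPM, a log2 fold change of 1.17 (SE 0.29, adjusted p = 0.159). Soat2 and Slc25a1 did not overlap either, and none of these 5 genes passed.

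In the TKO-tagged pair against the Ck19-derived pair, further lipogenesis had 10 of 17 genes called higher and 1 lower under TMM, and 6 higher and 3 lower on library totals. Over all tested genes, 15% were called higher and 14% lower under TMM, and 10.9% and 28.8% on library totals. Thrsp, a lipogenic nuclear protein of liver, was at 51.5 and 107 CPM against 3.11 and 1.008 CPM. Mlxipl, the carbohydrate-responsive factor ChREBP, was at 39.7 and 96.9 CPM against 2.57 and 2.44 CPM. Dgat2, which makes triglycerides, was at 531 and 433 CPM against 48.3 and 49.0 CPM. These genes and the desaturase Fads2 had log2 fold changes of 6.003, 5.51, 4.07 and 2.97 under TMM and were called under both scalings. Liver X receptors, efflux and storage had 5 of 10 higher and 0 lower under TMM and 5 higher and 2 lower on totals. Nr1h3, the receptor LXR alpha, was at 229 and 154 CPM against 2.79 and 8.001 CPM, and Lipa, the lysosomal acid lipase, at 195 and 200.2 CPM against 31.7 and 26.1 CPM. Abca1 was at 48.7 and 60.0 CPM against 0.157 and 0.0611 CPM. In SREBP processing, Insig2 and Erlin1 were called higher and Erlin2 lower under both scalings, with log2 fold changes of 2.08, 2.36 and -2.14 under TMM. The isoprenoid branch had 2 of 9 higher (Pdss1 and Dhdds) and 0 lower under TMM, and 0 higher and 2 lower on totals, which is near or below those shares of all genes. The hepatocyte markers of the same libraries were all 7 called higher, and their part in these counts was not tested.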

How the data were processed

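Bulk RNA was sequenced from mouse liver cells and organoids. The deposited tables hold raw counts of fragments per gene. The authors used featureCounts, version v1.5.0-p3, and the Ensembl 87 gene models of GRCm38, per the file headers, with both ends mapped, primary alignments, mapping quality of at least 10 and no use of strand. The mapping-quality limit drops reads that fit several places equally well, 33.2% to 41.0% of fragments failed it, and genes with near-identical copies such as Fdps and Idi1 may be undercounted. No duplicates were flagged, so PCR copies were counted. The submitters' processing notes also list STAR 2.5.4b, Subread, edgeR and limma, with no role.

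Columns were tied to samples by name, giving 6 libraries, and 4 other columns, whose names fit no label, were left out. Symbols matched 49326 of 49585 gene identifiers. CPM was computed on library totals. Genes were filtered with filterByExpr (minimum count 10), scaled by TMM and tested with the quasi-likelihood test of edgeR 4.0.16 in R 4.3.3, two-sided, with Benjamini-Hochberg adjustment over all tested genes at 0.05. All 30 members passed the filter in both comparisons. There were 2 residual degrees of freedom in each fit, with a common biological coefficient of variation of 0.434 for the organoids and 0.502 for the TKO-tagged comparison. A standard error is the size of the log2 fold change divided by the square root of F. Precision is limited by 2 libraries a group rather than by depth. The script was tested on simulated data. Replicate pairs differed by more than sampling noise (chi-square per gene 38.8, 80.4 and 303) and were kept as separate libraries. Alternatives were RLE size factors, library totals, no filter, DESeq2 1.42.0, limma-voom (limma 3.58.1), a replicate block, each library left out and, for the arms, a pseudocount of 0.1 in place of 1 CPM, medians and a per-length scale. Alternatives for the TKO-tagged comparison were chosen after seeing the data. All 30 members are named, and of each neighbouring list at most the 4 genes with the largest log2 fold change in size. The members and lists were chosen with earlier results of these data known.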

Additional observations from a re-analysis of the deposited data

How the results depend on the processing

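The lowest count of a member in a library was 101 fragments (Acaca), and with 2 libraries a group the calls moved strongly with single libraries. In the organoid comparison the number of all genes called was 95, and it became 506 without a count filter, 1512 with DESeq2 and 0 with the replicate block (2665 at an unadjusted p under 0.05), with 0 to 1394 when single libraries were left out. The 0 arose without either Ck19-derived library (1692 and 1611 genes at an unadjusted p under 0.05). The members called, 0, became 1 without filter and 3 with DESeq2, and 0 to 2 when single libraries were left out. With the TKO-tagged columns in place of the Sox9-derived ones, 5190 genes and 10 members were called, and the medians became 0.069 for the sterol arm, 0.65 for the fatty acid arm and 0.68 for the regulators. Members whose sign then turned were Hmgcs1 (0.051), Pmvk (0.94), Idi1 (0.57), Sqle (0.37), Nsdhl (0.088), Ebp (1.12), Sc5d (1.81), Dhcr7 (1.02), Acss2 (0.26), Scd1 (4.18), Elovl6 (1.05), Srebf1 (-0.25) and Insig1 (1.92). With single libraries left out, the log2 fold changes that crossed 0 ranged from -0.71 to 0.15 for Hmgcs1, -0.17 to 0.31 for Mvk, -0.28 to 0.038 for Idi1, -0.43 to 0.067 for Fdft1, -0.21 to 0.13 for Sqle, -0.27 to 0.48 for Hsd17b7, -0.34 to 0.09 for Dhcr7, -0.52 to 0.091 for Acly, -0.45 to 0.16 for Me1, -0.49 to 0.23 for Scd2 and -0.001 to 0.47 for Srebf1. No member was called in any of these except Scd1 and Acss2, as given above.

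In the TKO-tagged comparison the replicate block called 3319 genes and 6 members in place of 5190 and 10, with similar fold changes but no call for Scd2, Ebp, Dhcr7 and Pmvk (adjusted p = 0.0526, 0.0627, 0.0667 and 0.0693), and single libraries left out gave 881 to 6976 genes and 1 to 13 members. On library totals the medians were -0.70 for the sterol arm, -0.10 for the fatty acid arm and -0.082 for the regulators. There the sign turned for Hmgcs1 (-0.71), Mvk (-0.65), Idi1 (-0.20), Sqle (-0.40), Nsdhl (-0.68), Hsd17b7 (-0.065) and Acss2 (-0.49), and with limma-voom for Nsdhl (-0.006). Single libraries left out gave sterol medians of -0.31 to 0.34 and regulator medians of 0.12 to 1.11. They gave log2 fold changes of -0.12 to 0.34 for Mvk, -0.48 to 0.14 for Lss, -0.57 to 0.55 for Hmgcs1, -0.48 to 0.56 for Nsdhl, -0.04 to 0.58 for Acss2, -0.22 to 0.85 for Sqle, -1.65 to 0.022 for Mvd and -1.19 to 0.01 for Fdft1. The sterol minus fatty acid difference was 1.37 in the Sox9-derived pair with a pseudocount of 0.1 CPM. With medians over members it was 1.74 and 1.67 in the Ck19-derived and Sox9-derived pairs. With medians the TKO-tagged pair stayed within its SD of the value by means (0.58 ± 0.37), below both organoid pairs. Per length the difference was 1.82, 1.83 and 1.34 in the Ck19-derived, Sox9-derived and TKO-tagged pairs. The cause of these changes was not tested. The differences between libraries 1 and 2 in the 2 organoid pairs correlated at 0.0583 over genes. This value cannot tell whether same-numbered libraries share a source or a batch, which the sources used here do not give. In the organoid comparison 0 members were called with the block, and 0 were called without it.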
